A study of Mus musculus with 8 samples.

Results

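The antioxidant and Nrf2 target genes described here are 10 of the 21859 genes counted in each aorta, and they were taken by name: Hmox1, Nqo1, Gclc, Gclm, Srxn1, Txnrd1, Sod2, Sod3, Cat and Gpx3. RNA from whole aortas of 40-week-old male mice on the C57BL/6 background was sequenced in 4 ApoE-/- mice, which carry a germline knockout of Apoe and are prone to atherosclerosis, and in 4 age-matched wild-type (WT) mice. Both genotypes received a normal (chow) diet, and no other allele or treatment was given to either. The comparison asked which genes differ in expression between atherosclerosis-prone and normal aortas. Counts that fell on genes ranged from 23240995 to 23940156 in the ApoE-/- libraries and from 18375898 to 21664598 in the WT libraries. Apoe itself was 14.7 to 36.3 CPM (counts scaled to a common library total by the trimmed mean of M values, TMM) in ApoE-/- mice and 536 to 857 CPM in WT mice, so every library matched its labelled genotype.

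Cells meet oxidants with enzymes that destroy superoxide and peroxides and with small thiols that are kept reduced by NADPH. The transcription factor Nrf2, the product of Nfe2l2, is held by Keap1 and degraded until oxidants or electrophiles modify Keap1, after which it enters the nucleus, pairs with a small Maf protein and binds antioxidant response elements in front of its target genes. In the arterial wall oxidation of lipoproteins and loss of nitric oxide to superoxide are classic features of atherosclerosis, and macrophages, smooth muscle, endothelium and the fat around the vessel each contribute antioxidant enzymes.

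None of the 10 genes differed between ApoE-/- and WT aortas by the main test, edgeR's quasi-likelihood F test with Benjamini-Hochberg adjustment over all 15077 genes tested. Adjusted p-values ran from 0.583 to 0.967, and 0 of 10 reached an unadjusted p below 0.05, the smallest being 0.102. In the same fit 0.464% of all genes tested passed the adjusted threshold of 0.05 and 11.4% passed it unadjusted. DESeq2 called 0 of 10, with 4.29% of its genes called and 0 of the 10 below an unadjusted 0.05. The 2 genotypes overlapped for all 10 genes, against 8.71% of all genes tested whose genotypes did not overlap. The estimated log2 fold changes, ApoE-/- over WT, were positive for 6 genes and negative for 4, with a median of 0.21 beside 0.047 over all genes tested. Their 95% intervals reached from −1.34 to 1.54 between them, so that a log2 difference of 1 lay inside the interval for Hmox1, Srxn1, Gclc and Sod3 and a log2 difference of −1 inside that for Gpx3 and Cat. Because the samples were bulk tissue, fewer cells of a type and less RNA per cell cannot be told apart in any of these values.

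**Figure D1:**
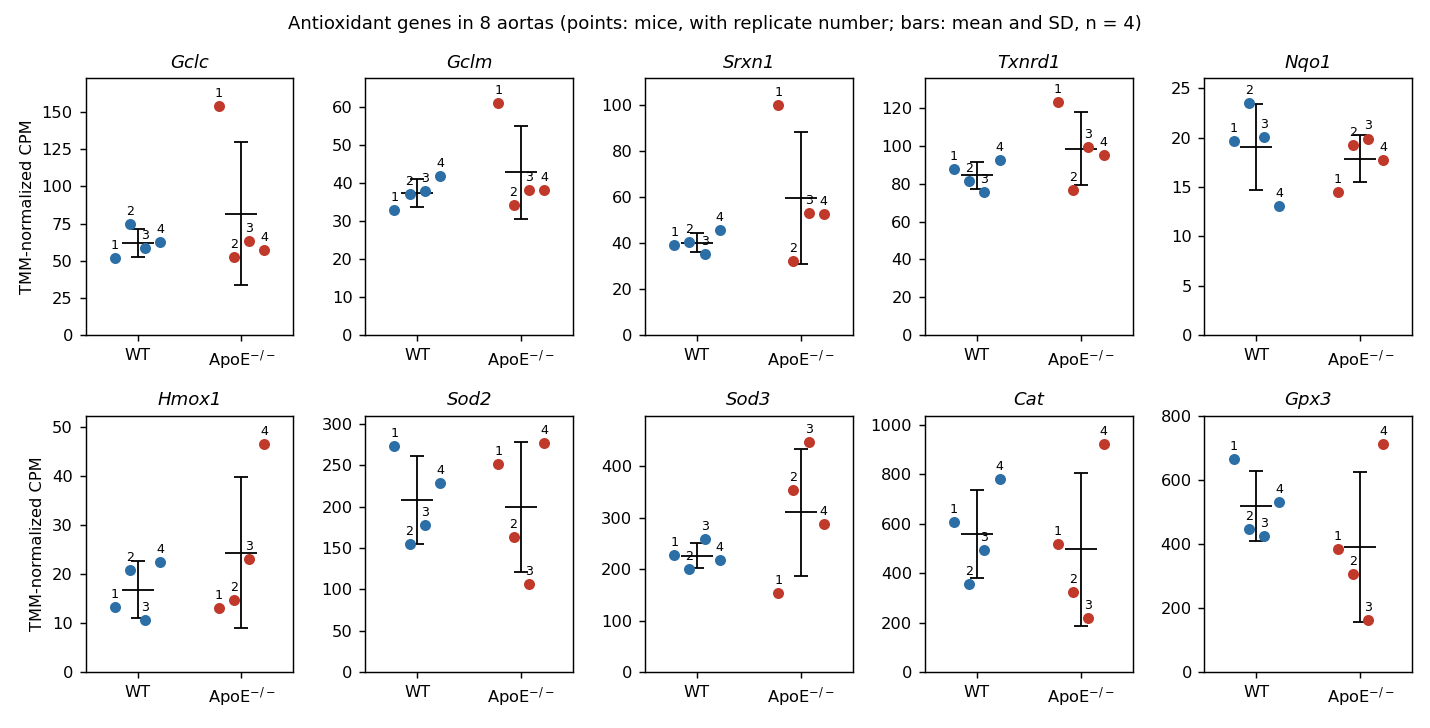
TMM-normalized CPM (y axis, from 0) of the 10 genes in each WT (blue) and ApoE-/- (red) aorta, numbered by replicate, with the mean and SD of 4 mice per genotype. The genotypes overlap in every panel; ApoE-/- replicate 1 is the highest library for Gclc, Gclm, Srxn1 and Txnrd1, and ApoE-/- replicate 4 is the highest library for Hmox1, Sod2, Cat and Gpx3.

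Values were more spread out among ApoE-/- than among WT aortas. The SD of log2 CPM was larger in ApoE-/- than in WT for 9 of the 10 genes, Nqo1 being the exception, and for 85.3% of all genes tested, so the antioxidant genes were near the background in this. Their SD lay above the median SD of all genes tested for 8 of 10 in ApoE-/- and 6 of 10 in WT mice. The highest of the 8 values fell in ApoE-/- replicate 1 for 4 genes (Gclc, Gclm, Srxn1, Txnrd1), in ApoE-/- replicate 4 for another 4 (Hmox1, Sod2, Cat, Gpx3), in ApoE-/- replicate 3 for Sod3 and in WT replicate 2 for Nqo1. Over all genes tested, 26.4% were highest in ApoE-/- replicate 1 and 21.5% in ApoE-/- replicate 4. ApoE-/- replicate 3 was the lowest library for Sod2, Cat and Gpx3.

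The same libraries stood apart in their cell type markers. Summed markers of sympathetic nerve and adrenal tissue were 2445 CPM in ApoE-/- replicate 1 and 18.02 to 409 CPM in the other 7 libraries, carried by Th and Dbh, the enzymes of noradrenaline synthesis (932 and 1431 CPM). The adrenal enzymes Cyp11a1, Cyp11b1 and Pnmt were at or below 1.24 CPM in all 8, Star was 8.07 to 13.1 CPM in all 8 (12.8 in ApoE-/- replicate 1), and Chga was 68.4 CPM in that library and 0.525 to 18.5 CPM elsewhere. Nerve glia markers summed to 637 CPM in that library and to 92.1 to 481 CPM elsewhere, while its smooth muscle sum was 5283 CPM against 11663 to 21724 CPM. The macrophage sum was 563 to 2903 CPM in ApoE-/- and 315 to 440.4 CPM in WT, without overlap, and all 13 of its genes were higher in every ApoE-/- mouse. Cardiac muscle markers summed to 160.5 to 345 CPM in ApoE-/- and 420.3 to 732 CPM in WT, also without overlap. Ryr2 carried much of the ApoE-/- sums (123 to 311 CPM, log2 fold change −0.016), and without it the sums were 132 CPM in ApoE-/- replicate 1, 24.01 to 47.9 CPM in the other ApoE-/- mice and 228 to 523 CPM in WT mice. Smooth muscle, endothelial and fibroblast markers, which define the aortic wall, were abundant in all 8 libraries, and no listed marker was at 0 throughout.

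Among the 10 genes, levels per kilobase of exon spanned a wide range. The median over the 8 libraries, in CPM per kilobase of exon (RPKM), was 241 for Gpx3 (range 90.0 to 394) and 194 for Cat (84.7 to 353), the scavengers of hydrogen peroxide in plasma and peroxisomes. Sod3 followed at 65.1 (40.9 to 119), then Sod2 at 20.3 (10.7 to 27.7), Gclc at 16.1 (13.8 to 40.9) and Srxn1 at 15.3 (11.4 to 35.4). Txnrd1 stood at 12.7 (10.7 to 17.4), Nqo1 at 12.5 (8.42 to 15.2), Hmox1 at 10.2 (6.07 to 26.5) and Gclm at 6.06 (5.25 to 9.72). Neighbours in this order overlapped over the 8 libraries in every case but 1: the lowest Sod3 value was above the highest Sod2 value. Gclm exons overlap the pseudogene Gm6061 on the same strand, so that its count is less certain than the others. They also overlap Gm17494 on the opposite strand, which stranded counts keep apart.

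Gclc, Gclm, Srxn1 and Txnrd1 keep thiols reduced. Gclc (chr9:77754535-77794485, plus strand, GRCm38) encodes the catalytic subunit and Gclm (chr3:122245557-122270732, plus strand) the modifier subunit of glutamate-cysteine ligase, the rate-limiting enzyme of glutathione synthesis. Srxn1 (chr2:152105516-152111376, plus strand) encodes sulfiredoxin, which repairs over-oxidized peroxiredoxins, and Txnrd1 (chr10:82833951-82897712, plus strand) the cytosolic thioredoxin reductase. All are textbook Nrf2 targets. Promoter windows from RefSeq (GRCm38.p6, 250 bases before to 50 after each annotated start) were found for 7 of the 10 genes and are shown for the 3 members of this quartet that had one. Txnrd1 had 3 windows, of which only the one with a motif is shown. The table held none for Gclc, Hmox1 and Sod3. Capitals mark 2 motifs searched on both strands, the core of the antioxidant response element (TGACNNNGC, or its reverse complement) and the AP-1 motif (TGANTCA), which did not overlap each other here.
Srxn1, chr2:152105274-152105573, plus strand: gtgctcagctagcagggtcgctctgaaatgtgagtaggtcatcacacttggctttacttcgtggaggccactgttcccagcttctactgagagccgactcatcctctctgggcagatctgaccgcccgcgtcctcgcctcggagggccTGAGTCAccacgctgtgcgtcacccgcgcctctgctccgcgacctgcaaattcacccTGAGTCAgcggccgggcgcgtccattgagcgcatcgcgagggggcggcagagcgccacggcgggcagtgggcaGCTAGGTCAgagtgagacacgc
Gclm, chr3:122245307-122245606, plus strand: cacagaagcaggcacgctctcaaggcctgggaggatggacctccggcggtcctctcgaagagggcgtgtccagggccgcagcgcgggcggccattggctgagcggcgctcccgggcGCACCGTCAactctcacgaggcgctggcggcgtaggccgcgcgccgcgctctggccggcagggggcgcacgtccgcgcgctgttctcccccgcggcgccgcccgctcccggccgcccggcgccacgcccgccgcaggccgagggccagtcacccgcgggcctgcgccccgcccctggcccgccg
Txnrd1, chr10:82858956-82859255, plus strand: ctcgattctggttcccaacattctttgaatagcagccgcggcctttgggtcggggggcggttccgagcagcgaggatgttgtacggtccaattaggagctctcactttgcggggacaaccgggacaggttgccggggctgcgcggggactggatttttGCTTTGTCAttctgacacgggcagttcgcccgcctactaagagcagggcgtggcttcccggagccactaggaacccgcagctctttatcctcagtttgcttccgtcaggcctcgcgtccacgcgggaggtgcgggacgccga
The core was present in these 3 genes, in each case on the strand opposite to the gene, and in none of the windows of Nqo1, Sod2, Cat and Gpx3. Its first printed base lay at 29 after the start in Srxn1 (GCTAGGTCA), at −134 in Gclm (GCACCGTCA) and at −92 in the second of 3 Txnrd1 windows (GCTTTGTCA), counting the start as 1. Of the 9 windows of the members, 3 held the core and 1 the AP-1 motif. Over 32851 promoter windows 12.4% held the core and 7.81% the AP-1 motif. Srxn1 alone among the members with a window held the AP-1 motif, at −102 and −45. A match of letters is a description and not a binding site, and a window without a match says nothing about sequence outside it.

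Gclc was 154, 52.5, 63.5 and 56.9 CPM in ApoE-/- replicates 1 to 4 and 52.0, 74.6, 58.7 and 62.7 CPM in WT replicates 1 to 4. Srxn1 was 99.9, 32.1, 53.0 and 52.8 CPM in the ApoE-/- mice and 39.2, 40.6, 35.3 and 45.5 CPM in the WT mice. In both genes ApoE-/- replicate 1 was 2.62 and 2.46 times the median of the other 7 libraries, respectively, while ApoE-/- replicate 2 lay at the low end. The ApoE-/- and WT means were 81.7 ± 48.3 and 62.0 ± 9.46 CPM for Gclc, and 59.5 ± 28.7 and 40.1 ± 4.23 CPM for Srxn1 (SD, n = 4 mice each). The log2 fold change was 0.40 for Gclc (SE 0.35, 95% interval −0.41 to 1.20, edgeR adjusted p = 0.785). For Srxn1, the largest estimate of the 10, it was 0.57 (SE 0.31, 95% interval −0.14 to 1.27, edgeR adjusted p = 0.583).

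Gclm and Txnrd1 showed the same library at the top with a smaller excess. Gclm was 61.1, 34.2, 38.2 and 38.3 CPM in ApoE-/- and 33.0, 37.1, 38.1 and 41.9 CPM in WT mice, for a log2 fold change of 0.19 (SE 0.19, 95% interval −0.24 to 0.63, edgeR adjusted p = 0.803). Txnrd1 was 123, 76.7, 99.5 and 95.1 CPM in ApoE-/- and 87.9, 81.7, 75.8 and 92.6 CPM in WT mice, for a log2 fold change of 0.22 (SE 0.15, 95% interval −0.12 to 0.57, edgeR adjusted p = 0.698). Without ApoE-/- replicate 1 the estimates were −0.10 for Gclc, −0.023 for Gclm, 0.20 for Srxn1 and 0.099 for Txnrd1, so that the positive sign of Gclc and Gclm rested on that library. On the log2 scale its lead over the next highest library was 1.05 for Gclc and 0.92 for Srxn1, a lead exceeded by 7.18% and 7.97% of all genes tested. It also led by 0.54 for Gclm (exceeded by 11.5% of genes) and by 0.31 for Txnrd1 (15.5%). This was the library with the high Th and Dbh values, and their part in the thiol genes was not tested.

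**Figure D2:**
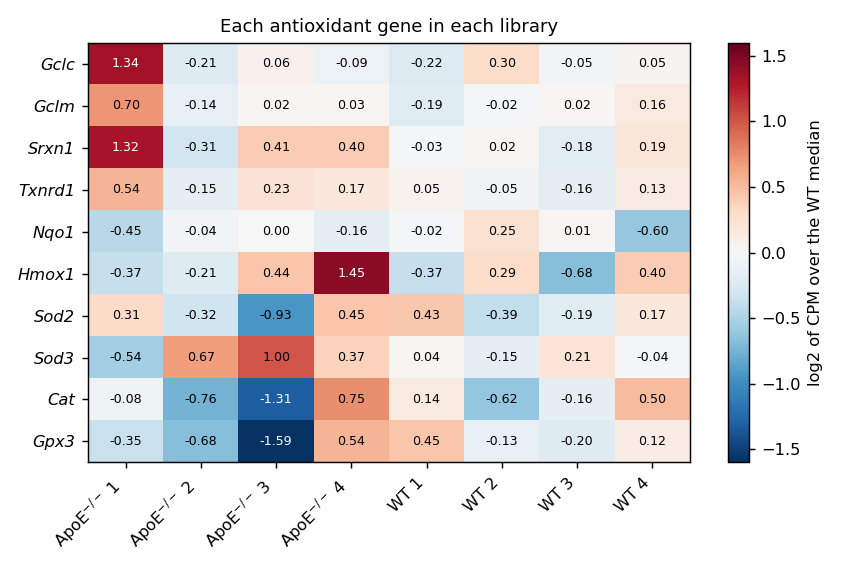
Log2 ratio of each gene's CPM to the median of the 4 WT libraries (colour and printed value) in the 8 libraries (columns) for the 10 genes (rows). ApoE-/- replicate 1 reads 1.34 for Gclc and 1.32 for Srxn1, ApoE-/- replicate 4 reads 1.45 for Hmox1, and ApoE-/- replicate 3 reads −1.31 for Cat and −1.59 for Gpx3 with 1.00 for Sod3.

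Across the 8 libraries Srxn1 and Txnrd1 were among each other's 3 most alike genes, with a Pearson r of log2 CPM of 0.97, and 0.94 over the 7 libraries without ApoE-/- replicate 1. The genes most like Gclc were Rtl8c, Mfsd6 and Slc2a6 (r = 0.99 for each over 8 libraries, 0.91 to 0.93 over 7). Those most like Gclm were Cdk14, Hspb8 and Psmd1 (r = 0.98 over 8 libraries, 0.85 to 0.92 over 7). These coefficients describe 8 points that share their libraries, depth and tissue composition, and the genes were picked from all those tested for a high r. The ratio of Gclm to Gclc, in RPKM, was 0.238, 0.390, 0.360 and 0.402 in ApoE-/- and 0.380, 0.298, 0.388 and 0.400 in WT aortas, so that only the first ApoE-/- library fell below the WT range (two-sided exact permutation p = 0.686, adjusted p = 0.784 over 8 ratios). Txnrd1 relative to its mitochondrial paralogue Txnrd2, in RPKM, was 2.62 to 4.13 in ApoE-/- and 2.17 to 3.21 in WT aortas (exact permutation p = 0.486, adjusted p = 0.784).

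Slc7a11, the cystine transporter that feeds glutathione synthesis, had counts of 34, 34, 49 and 98 in ApoE-/- mice and 7, 7, 2 and 6 in WT mice, or 1.38 to 4.25 against 0.111 to 0.328 CPM. It was higher in every ApoE-/- mouse, with a log2 fold change of 3.10 (SE 0.49, 95% interval 1.97 to 4.23, edgeR adjusted p = 0.0462, DESeq2 adjusted p = 8.91e-06). It remained a low-abundance transcript in both genotypes. Leaving out a library in turn kept its log2 fold change between 2.63 and 3.28 (edgeR), with the edgeR call kept in 1 of 8 such fits (the fit without ApoE-/- replicate 1) and the DESeq2 call in 8 of 8. The call was also lost in limma-voom (adjusted p = 0.0747) and in edgeR with the replicate block (adjusted p = 0.140), and a filter of at least 10 counts in every library left Slc7a11 untested. Its order over the ApoE-/- mice followed the macrophage marker sum of 563, 1125, 1537 and 2903 CPM, and the part of those cells was not tested.

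Gsr, the NADPH-dependent reductase that regenerates glutathione, was 68.0, 49.9, 53.2 and 63.2 CPM in ApoE-/- and 41.2, 42.0, 36.8 and 41.3 CPM in WT mice, again without overlap. Its log2 fold change was 0.54 (SE 0.12, 95% interval 0.26 to 0.81), which passed the threshold in DESeq2 (adjusted p = 0.00339) and not in edgeR (adjusted p = 0.0944). Gss, the second enzyme of glutathione synthesis, was 18.2 to 23.8 CPM in ApoE-/- and 17.9 to 23.2 CPM in WT mice (log2 fold change 0.072, edgeR adjusted p = 0.895). Of the 16 genes tested on the list of glutathione synthesis and recycling, edgeR called 1 (Slc7a11), DESeq2 called 2 (with Gsr) and none was called lower, where 0.464% and 4.29% of all genes tested were called by edgeR and DESeq2. An unadjusted edgeR p below 0.05 was found for 4 of the 16 (25%, against 11.4% of all genes tested). The median log2 fold change of that list was 0.25, beside 0.047 over all genes tested.

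**Figure D3:**
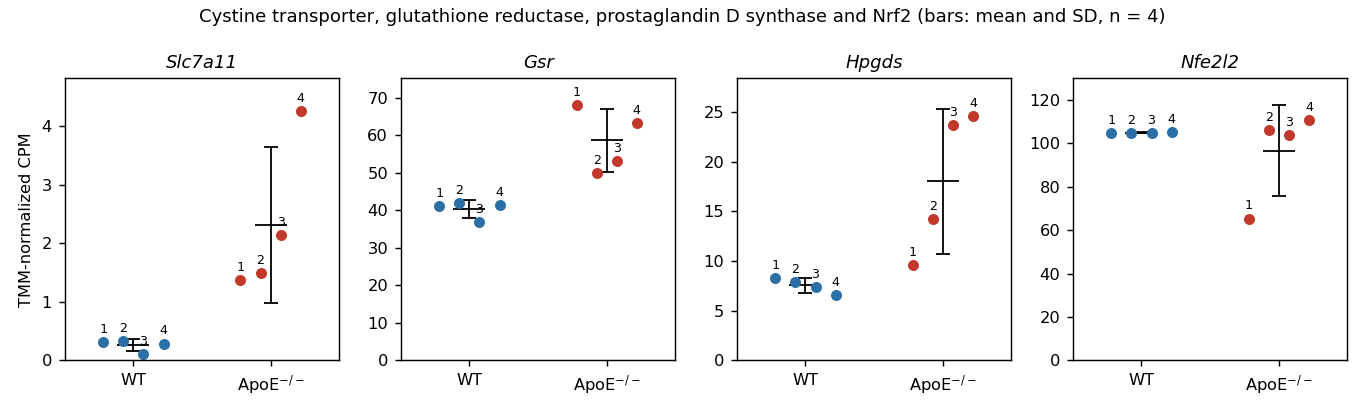
TMM-normalized CPM (y axis, from 0) of Slc7a11, Gsr, Hpgds and Nfe2l2 in each WT (blue) and ApoE-/- (red) aorta, numbered by replicate, with mean and SD of 4 mice per genotype. Slc7a11, Gsr and Hpgds are higher in every ApoE-/- mouse than in any WT mouse; Nfe2l2 is 105 CPM in all 4 WT mice and 65.3 CPM in ApoE-/- replicate 1.

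Nqo1 (chr8:107388225-107403206, minus strand), the quinone reductase often used to read Nrf2 activity, did not share this pattern. It was 14.5, 19.3, 19.9 and 17.8 CPM in ApoE-/- and 19.6, 23.5, 20.1 and 13.1 CPM in WT mice. The lowest ApoE-/- value was that of replicate 1, the library in which the thiol genes were highest. Its log2 fold change was −0.095 (SE 0.19, 95% interval −0.53 to 0.34, edgeR adjusted p = 0.913) and 0.022 without WT replicate 2, and it had the narrowest spread of the 10 among ApoE-/- mice, an SD of log2 CPM of 0.20 that exceeded the SD of 24.3% of all genes tested.

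The regulators themselves were nearly level. Nfe2l2 was 65.3, 106, 104 and 111 CPM in ApoE-/- and 105 CPM in each WT mouse (log2 fold change −0.12, SE 0.16, edgeR adjusted p = 0.855). ApoE-/- replicate 1 thus had the lowest Nfe2l2 mRNA and the highest Gclc, Gclm, Srxn1 and Txnrd1. Keap1, the inhibitor of Nrf2, was 46.8 to 59.6 CPM in ApoE-/- and 46.3 to 53.4 CPM in WT mice (log2 fold change 0.052, edgeR adjusted p = 0.920). Bach1, the haem-sensitive repressor that competes for the same elements, was 71.9 to 81.5 and 68.8 to 76.2 CPM (log2 fold change 0.092, edgeR adjusted p = 0.789). Of 12 genes tested on the list of Nrf2 and its regulators, 0 were called by edgeR or DESeq2 and 1 had an unadjusted edgeR p below 0.05 (Bach2, a lymphoid relative of Bach1, 12.3 to 15.9 against 10.2 to 12.2 CPM, named after its values were seen), or 8.33% against 11.4% of all genes tested. The activity of Nrf2 is set largely at the protein level, which these counts do not measure.

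Hmox1 (chr8:75093621-75100589, plus strand) encodes haem oxygenase 1, which breaks haem into biliverdin, iron and carbon monoxide and is induced in macrophages that take up red cells or oxidized lipid. It was 13.2, 14.7, 23.1 and 46.5 CPM in ApoE-/- and 13.2, 20.9, 10.6 and 22.5 CPM in WT mice. ApoE-/- replicates 3 and 4 were above all WT mice and replicates 1 and 2 were within their range. Means were 24.4 ± 15.4 and 16.8 ± 5.79 CPM (SD, n = 4 each), a log2 fold change of 0.53 (SE 0.44, 95% interval −0.47 to 1.54, edgeR adjusted p = 0.766). Without ApoE-/- replicate 4 the estimate was 0.014. Against its constitutive paralogue Hmox2, Hmox1 was 0.457, 0.706, 1.17 and 1.54 in ApoE-/- and 0.554, 0.992, 0.506 and 0.862 in WT aortas, as a ratio of RPKM (exact permutation p = 0.514, adjusted p = 0.784).

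Within the ApoE-/- aortas Hmox1 had the same order as the macrophage marker sum, lowest in replicate 1 and highest in replicate 4, whereas within the WT aortas the orders differed. Over the 8 libraries the highest ratio of Hmox1 to that sum was 4.38 times the lowest, no narrower than the 4.37 times of Hmox1 itself, and of 15 marker lists it was the fibroblast list to which Hmox1 kept the narrowest ratio (2.29 times). The macrophage sum was higher in ApoE-/- aortas by more than Hmox1 was, but the size of that gap depends on which markers carry the sum. In CPM, which does not weight markers as RPKM does, Lyz2 and Gpnmb carried much of it (998 and 635 of 2903 CPM in ApoE-/- replicate 4). Their log2 fold changes were 2.37 and 2.88, against 0.86 for Csf1r, 0.92 for Mrc1 and 0.96 for Cd14. The ratio of Hmox1 to that sum, in RPKM, was 0.0259, 0.0146, 0.0168 and 0.0178 in ApoE-/- and 0.0345, 0.0641, 0.0402 and 0.0629 in WT aortas, so that all 4 ApoE-/- values were below all 4 WT values. The mean log2 ratio differed by −1.41 (two-sided exact permutation p = 0.0286, the smallest that 4 against 4 libraries allow, adjusted p = 0.229 over 8 ratios). With that smallest p, no ratio could pass after adjustment over the 8 unless 5 of them reached it. The log2 difference was −1.57 to −1.28 with each library left out in turn, and −1.32 on raw counts in place of RPKM. The genes most like Hmox1 over the 8 libraries were Eps8, Renbp and Adam5 (Pearson r = 0.99, 0.98 and 0.96), a description of 8 points that share libraries and composition. Among the 21 genes tested for haem and iron handling 17 had a positive log2 fold change, with a median of 0.27, beside 58.0% positive and a median of 0.047 over all genes tested. Of the 21, 0 were called by edgeR or DESeq2 and 2 had an unadjusted edgeR p below 0.05 (9.52%, against 11.4% of all genes tested). Those 2, named after their values were seen, were Hp, the haemoglobin-binding haptoglobin (237 to 1123 against 183 to 326 CPM), and Slc48a1, a haem transporter (91.1 to 121 against 86.6 to 94.3 CPM).

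Superoxide is dismuted to hydrogen peroxide by Sod1 in the cytosol, Sod2 in mitochondria and Sod3 outside the cell, where Sod3 binds matrix heparan sulfate and is a major isoform of the arterial wall. Sod3 (chr5:52363791-52371418, plus strand) was 153, 354, 446 and 287 CPM in ApoE-/- and 228, 200.2, 258 and 217 CPM in WT mice. ApoE-/- replicates 2, 3 and 4 were above every WT mouse, and ApoE-/- replicate 1 was below every WT mouse. Means were 310.3 ± 123 and 226 ± 24.5 CPM (SD, n = 4 each), a log2 fold change of 0.46 (SE 0.29, 95% interval −0.22 to 1.13, edgeR adjusted p = 0.673, DESeq2 adjusted p = 0.692). Without ApoE-/- replicate 3, the highest library, it was 0.23 (edgeR adjusted p = 0.783, DESeq2 adjusted p = 0.897). Without ApoE-/- replicate 1 it was 0.68, which passed the threshold in DESeq2 (adjusted p = 0.00452) and not in edgeR (adjusted p = 0.0718), and Sod3 was the only member called by any of the tools or settings run.

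The low Sod3 library was also the library with the lowest smooth muscle marker sum, 5283 CPM against 13359 to 21068 CPM in the other ApoE-/- mice and 11663 to 21724 CPM in WT mice. Relative to that sum, in RPKM, Sod3 was 0.0213, 0.0128, 0.0177 and 0.0148 in ApoE-/- and 0.0101, 0.00860, 0.00884 and 0.0136 in WT aortas. Of the ApoE-/- ratios 3 were above all WT ratios, and that of replicate 2 was below that of WT replicate 4 (log2 difference 0.70, exact permutation p = 0.0571, adjusted p = 0.229). The fibroblast sum was 3100.2, 5809.95, 8268 and 8091 CPM in ApoE-/- and 3652 to 3970.1 CPM in WT mice, replicate 4 lying above replicate 2 of the ApoE-/- mice where Sod3 had them the other way round. Of the 15 marker lists, it was the fibroblast sum to which Sod3 kept the narrowest ratio, with a highest ratio 2.07 times the lowest over the 8 libraries against 2.92 times for Sod3 itself and 2.48 times for its ratio to smooth muscle. The part of either cell type in the Sod3 values was not tested. The genes most like Sod3 were Uvrag, Bgn, the matrix proteoglycan biglycan, and Map3k8 (Pearson r = 0.99 for each over 8 libraries).

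Sod2 (chr17:13006846-13040063, plus strand) was 251, 163, 107 and 277 CPM in ApoE-/- and 273, 155, 177 and 229 CPM in WT mice, for a log2 fold change of −0.064 (SE 0.32, 95% interval −0.79 to 0.67, edgeR adjusted p = 0.967) that turned positive without ApoE-/- replicate 2 (0.022), ApoE-/- replicate 3 (0.14) or WT replicate 1 (0.092). Sod1 was 74.8 to 161 CPM in ApoE-/- and 95.3 to 130.3 CPM in WT mice (log2 fold change 0.011, edgeR adjusted p = 0.996). The ratio of Sod2 to Sod1, in RPKM and not in the CPM given above, was 0.566 to 0.830 in ApoE-/- and 0.611 to 0.962 in WT aortas (exact permutation p = 0.657, adjusted p = 0.784). The ratio of Sod3 to Sod1, also in RPKM, was 1.35, 4.36, 6.33 and 1.90 in ApoE-/- and 1.77 to 2.88 in WT aortas (exact permutation p = 0.486, adjusted p = 0.784). None of the 5 genes on the list of superoxide dismutases and catalase was called by edgeR or DESeq2, or had an unadjusted edgeR p below 0.05, where 0.464%, 4.29% and 11.4% of all genes did.

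**Figure D4:**
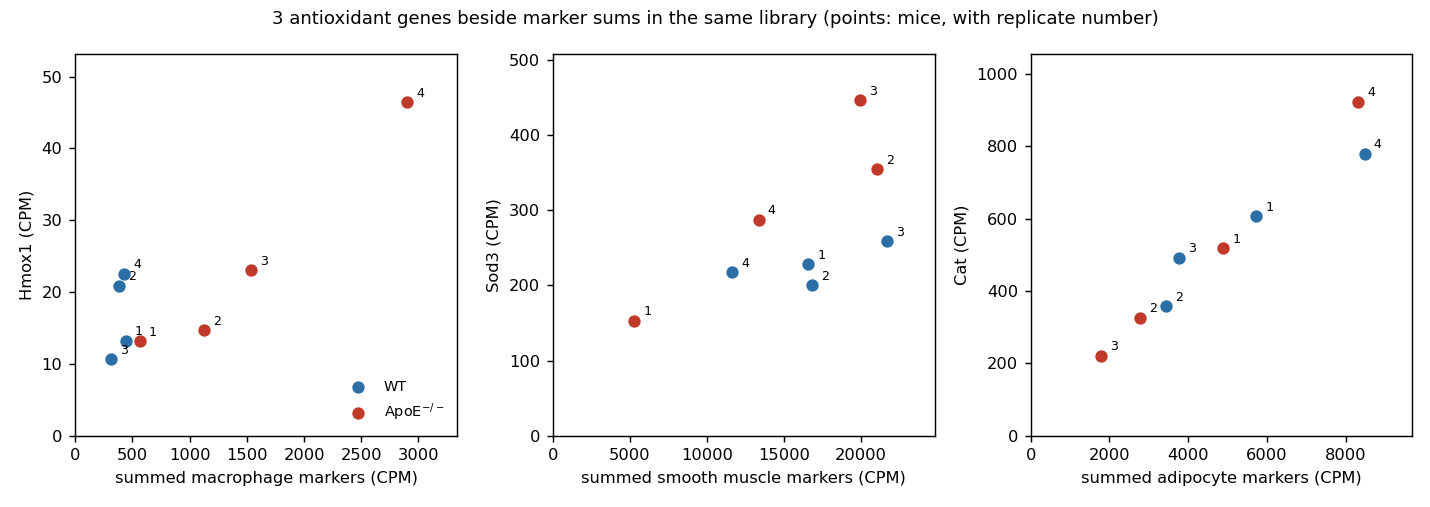
CPM of Hmox1, Sod3 and Cat (y axes, from 0) against the summed CPM of macrophage, smooth muscle and adipocyte markers in the same library (x axes, from 0) for WT (blue) and ApoE-/- (red) mice numbered by replicate. Cat rises with the adipocyte sum over both genotypes, while Sod3 is lowest in ApoE-/- replicate 1, which also has the lowest smooth muscle sum, and the 4 WT mice lie at macrophage sums of 315 to 440.4 CPM.

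Cat and Gpx3 remove hydrogen peroxide. Cat (chr2:103453849-103485160, minus strand), the peroxisomal catalase, was 519, 326, 221 and 923 CPM in ApoE-/- and 608, 357, 493 and 779.9 CPM in WT mice. Gpx3 (chr11:54902453-54910377, plus strand), the selenium-dependent glutathione peroxidase that is secreted into plasma and is abundant in kidney and fat, was 384, 306, 163 and 714 CPM in ApoE-/- and 667, 447, 426 and 533 CPM in WT mice. For both genes the ApoE-/- group held the highest and the lowest library, replicates 4 and 3, which differed 4.17-fold for Cat and 4.38-fold for Gpx3. The log2 fold change was −0.17 for Cat (SE 0.45, 95% interval −1.20 to 0.86, edgeR adjusted p = 0.939), and its sign was not stable, at −0.65 without ApoE-/- replicate 4, 0.076 without ApoE-/- replicate 3 and 0.033 without WT replicate 4. It was −0.40 for Gpx3, the lowest estimate of the 10 (SE 0.41, 95% interval −1.34 to 0.54, edgeR adjusted p = 0.809), and ran from −0.87 without ApoE-/- replicate 4 to −0.15 without ApoE-/- replicate 3.

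Cat varied with the adipocyte markers, which read the fat around the vessel, in both genotypes. The adipocyte sum was 4889.9, 2774, 1789.8 and 8319 CPM in ApoE-/- replicates 1 to 4 and 5724, 3435, 3774 and 8476 CPM in WT replicates 1 to 4, the order of Cat within each genotype. The ratio of Cat to that sum, in RPKM, was 0.0544, 0.0583, 0.0605 and 0.0502 in ApoE-/- and 0.0578, 0.0531, 0.0657 and 0.0489 in WT aortas. It thus stayed within 1.34-fold over the 8 libraries while the adipocyte sum, in RPKM as well, varied 5.03-fold, and only 0.0265% of 15070 genes kept a narrower ratio. The genotypes differed by −0.0088 in mean log2 ratio (exact permutation p = 0.971, adjusted p = 0.971). For Gpx3 and Sod2 too, adipocytes were the list of narrowest ratio among the 15, with a highest ratio 1.99 and 2.03 times the lowest. The narrowest list was T cells for Gclc (3.30) and Srxn1 (2.21), skeletal muscle for Gclm (2.26) and Txnrd1 (2.05), and endothelium for Nqo1 (1.96). For Gclc, Gclm, Txnrd1 and Nqo1 this was wider than the range of the gene itself (2.96, 1.85, 1.63 and 1.80 times). A list picked as the narrowest of 15 names no source cell. Markers of kidney tubule, a main source of plasma Gpx3, summed to 4.18 to 33.4 CPM over the 8 libraries. Whether the amount of fat accounts for the spread of Cat, Gpx3 and Sod2 was not tested.

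The genes most like Cat over the 8 libraries were Pxmp2, a peroxisomal membrane protein, Scp2, the peroxisomal sterol carrier and thiolase, and Mrps30 (Pearson r = 0.99 for each). Those most like Gpx3 were Ndufb10, Bcas2 and Angptl4 (r = 0.98 for each), and those most like Sod2 were Vars2, Frat1 and Cox5a (r = 0.99 for each). The points share libraries, depth and composition, and no p is given. Of 30 peroxisomal genes tested 22 had a negative log2 fold change, with a median of −0.16, beside 42.0% negative and a median of 0.047 over all genes tested. Of the 30, 0 were called by edgeR or DESeq2 and 1 had an unadjusted edgeR p below 0.05 (3.33%, against 11.4%). ApoE-/- replicate 4 was the highest library for 14 of the 30 (46.7%, against 21.5% of all genes tested).

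**Figure D5:**
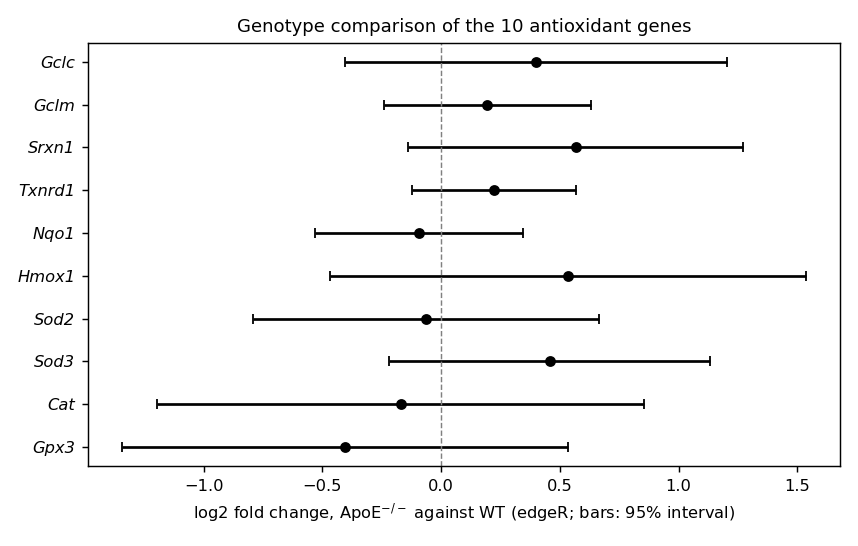
Log2 fold change of ApoE-/- over WT (points) with its 95% interval (bars) from the edgeR fit for the 10 genes; the dashed line marks 0. All 10 intervals include 0, from the narrowest, Txnrd1 (−0.12 to 0.57), to the widest, Cat (−1.20 to 0.86).

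Of 169 genes tested on 10 lists of antioxidant, haem, selenoprotein and peroxisomal genes, which contain the 10 members, edgeR called Slc7a11 alone (0.464% of all genes tested were called) and 14 had an unadjusted p below 0.05 (8.28%, against 11.4% of all genes tested). DESeq2 called 3, all higher in ApoE-/- mice (1.78%, against 4.29% of its genes). For 6 genes the ApoE-/- values were all above the WT values and for 0 they were all below (3.55%, against 8.71%). The median log2 fold change was 0.062, beside 0.047 over all genes tested. Besides Slc7a11 and Gsr, the third DESeq2 call was Hpgds, a glutathione transferase family member that makes prostaglandin D in myeloid and mast cells. Hpgds was 9.62, 14.3, 23.7 and 24.6 CPM in ApoE-/- and 8.31, 7.91, 7.42 and 6.61 CPM in WT mice (log2 fold change 1.25, SE 0.29, DESeq2 adjusted p = 0.00505, edgeR adjusted p = 0.109). It also followed the order of the macrophage sum over the ApoE-/- mice.

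By role, the remaining lists held no call in edgeR. Of 5 glutathione peroxidases tested, 0 were called by either tool or had an unadjusted edgeR p below 0.05, where 0.464% of all genes tested were called by edgeR, 4.29% by DESeq2 and 11.4% had such a p. All 5 were highest in ApoE-/- replicate 4, as were 21.5% of all genes tested. Gpx1, the cytosolic peroxidase, was 206 to 468 CPM in ApoE-/- and 186 to 289 CPM in WT mice (log2 fold change 0.33, edgeR adjusted p = 0.785). Gpx4, which protects membrane lipids from peroxidation, was 15.7 to 39.2 and 14.9 to 33.5 CPM (log2 fold change −0.017, edgeR adjusted p = 0.996). The 22 glutathione transferases had 1 DESeq2 call (Hpgds), near the 4.29% of all genes, and a median of −0.017. The 20 genes of the thioredoxin and peroxiredoxin system had 0 calls by either tool, 2 of 20 unadjusted edgeR p-values below 0.05 (against 11.4% of all genes tested) and a median of 0.037, with Prdx1, a peroxiredoxin and Nrf2 target, at 84.1 to 169 against 85.2 to 112 CPM (log2 fold change 0.27, edgeR adjusted p = 0.760).

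The list of other Nrf2 target enzymes, which includes the NADPH-producing enzymes of the pentose phosphate pathway and the ferritin chains, had 19 of 25 genes with a positive log2 fold change and a median of 0.22, beside 58.0% positive and a median of 0.047 over all genes tested. Of these, 0 were called by edgeR or DESeq2 (against 0.464% and 4.29%) and 1 (Ugdh, UDP-glucose dehydrogenase, named after its values were seen) had an unadjusted edgeR p below 0.05, against 11.4% of all genes tested. Ugdh was 42.0, 61.6, 75.5 and 65.5 CPM in ApoE-/- and 38.7 to 44.7 CPM in WT mice. The 25 selenoproteins and genes of selenoprotein synthesis had 0 calls by either tool, 1 unadjusted edgeR p below 0.05 (against 11.4%) and a median of 0.089. Selenop, the secreted selenium carrier, was 479, 605, 552 and 1155 CPM in ApoE-/- and 507 to 661 CPM in WT mice (log2 fold change 0.31, edgeR adjusted p = 0.797), again with ApoE-/- replicate 4 at the top.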

How the data were processed

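Whole-aorta RNA of 8 mice was ribodepleted, made into stranded libraries and sequenced as paired reads by the authors. The deposited files hold raw read counts per gene and library, made by the authors with TopHat2 and HTSeq against GRCm38 (mm10), per the submitters' processing notes, with no versions given in the sources used here. Counts were used as deposited. Rows for unassigned reads (no feature 50.1% to 58.0%, ambiguous 0.850% to 1.32%, not unique 11.8% to 14.3% of read pairs) stayed out of library sizes. The no-feature share was 50.1% to 54.7% in ApoE-/- and 56.4% to 58.0% in WT libraries, without overlap. The share on genes was 32.3% to 35.6% and 27.9% to 30.2%, also without overlap. The part of this difference in the genotype comparison was not tested. Samples were grouped by their titles.

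Counts were tested in edgeR 4.0.16 (R 4.3.3; filterByExpr, TMM, robust glmQLFit, glmQLFTest) with genotype as the factor, over all 15077 genes kept, with Benjamini-Hochberg adjustment at 0.05. DESeq2 1.42.0 and limma-voom (limma 3.58.1) were alternatives, with other scalings, filters, a replicate block and left-out libraries. edgeR gave the log2 fold changes, standard errors and 95% intervals. The script was tested on simulated data. CPM used TMM library sizes. RPKM divided CPM by the exon union of GENCODE release 21 of the mouse annotation, which matched 21817 of 21859 identifiers. Marker sums added the CPM or RPKM of a list. Log2 ratios of RPKM were compared by two-sided exact permutation over all 70 assignments (scipy 1.17.1), with adjustment over 8 ratios.

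The 10 genes, the pathway lists, the marker lists and the ratios were chosen with earlier results of these data known. Named genes were the 10 members, Apoe, Nrf2 regulators, chosen partners, genes called on a list, markers beside a result and the 3 most alike genes by Pearson r. No 2 libraries of the same genotype agreed within sampling noise. The total on genes, 18375898 to 23940156 counts, sets the counting precision, and intervals cover the spread between mice as well.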

Additional observations from a re-analysis of the deposited data

Results flagged for a closer look

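Within each genotype the highest and lowest of the 4 values were tested by Dixon's ratio, the gap to the nearest value over the whole range, against its 95% critical value. Of 92 groups 8 passed, where chance alone gives about 4.6. Gclc in ApoE-/- mice gave 0.892, with replicate 1 at 154 CPM and the other ApoE-/- mice at 52.5 to 63.5 CPM. Gclm gave 0.848 for the same library, at 61.1 against 34.2 to 38.3 CPM. Nfe2l2 gave 0.849, with replicate 1 low at 65.3 against 104 to 111 CPM. The adrenal and sympathetic marker sum of that library, 2445 against 18.02 to 167 CPM, gave 0.939, and its nerve glia sum, 637 against 92.1 to 152 CPM, gave 0.891. ApoE-/- replicate 4 was high for Gpx1 (0.897, 468 against 206 to 233 CPM) and low for the cardiac muscle sum (0.946, 160.5 against 335 to 345 CPM). Ryr2 set that last order (123 CPM in replicate 4 against 213 to 311 CPM). Without it the sum was highest in replicate 1, at 132 CPM against 24.01 to 47.9 CPM in the other ApoE-/- mice. Gsr in WT mice gave 0.851, with replicate 3 low at 36.8 against 41.2 to 42.0 CPM. What produced these values was not tested.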

How the results depend on the processing

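No member was called under the other scalings, filters, limma-voom or the replicate block, and with each library left out in turn the member count was 0 in edgeR and 0 to 1 in DESeq2, the 1 being Sod3 without ApoE-/- replicate 1. Calls over all genes numbered 70 in edgeR, 721 in DESeq2, 29 in limma-voom and 2 with the replicate block. With a library left out they ran from 0 to 593 in edgeR and from 439 to 1548 in DESeq2, the highest without ApoE-/- replicate 1. The edgeR count was 0 without ApoE-/- replicate 3, WT replicate 2 or WT replicate 4. It was 2 without ApoE-/- replicate 4 or WT replicate 1, and 1 without WT replicate 3. Pathway list calls numbered 1 in edgeR, 3 in DESeq2, and 0 in limma-voom, with at least 10 counts in every library and with the replicate block, and 0 to 10 with a library left out. With ApoE-/- libraries 1 and 3 both left out, edgeR called 822 genes and 3 pathway genes, DESeq2 called 1772 genes, 14 pathway genes and 1 member (Sod3), and the log2 fold changes were −0.18 in both tools for Gclc, −0.049 (edgeR) and −0.048 (DESeq2) for Gclm, 0.078 and 0.079 for Sod2 and 0.16 in both for Cat. With 1 library left out they ran from −0.25 to 0.022 for Nqo1, −0.11 to 0.56 for Gclc, −0.028 to 0.29 for Gclm, −0.29 to 0.14 for Sod2, −0.68 to 0.076 for Cat, 0.22 to 0.68 for Sod3 and −0.89 to −0.15 for Gpx3, while Hmox1, Srxn1 and Txnrd1 also kept their sign. Among ratios, the log2 difference ran from −0.19 to 0.076 for Gclm to Gclc, −0.18 to 0.042 for Sod2 to Sod1 and −0.074 to 0.068 for Cat to adipocytes. It was 0.092 for Cat to adipocytes on raw counts, and 0.12 for Gclm to Gclc and −0.050 for Txnrd1 to Txnrd2 without ApoE-/- libraries 1 and 3. The cause of these changes was not tested beyond the libraries named. Same-numbered libraries of the 2 genotypes correlated at 0.062, −0.44, 0.28 and 0.15 in their deviations. These values cannot show whether same-numbered libraries share a litter or a batch, which the labels do not state. The 4 mice per genotype limit how narrow any interval can be.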

Other observations

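Of the 169 pathway genes tested 14 had an unadjusted edgeR p below 0.05 (8.28%, against 11.4% of all genes tested), 11 higher and 3 lower in ApoE-/- aortas. Beside the higher genes already given, and likewise named after their values were seen, Ptges, a glutathione-dependent prostaglandin E synthase, was 12.9, 9.66, 7.58 and 13.2 CPM in ApoE-/- and 5.21 to 7.39 CPM in WT mice (log2 fold change 0.70, edgeR adjusted p = 0.215). The ranges of the next 3 overlapped. Chac1, which degrades glutathione, was 5.07 to 9.50 against 4.07 to 5.93 CPM (log2 fold change 0.59, edgeR adjusted p = 0.377). Ggt5, a gamma-glutamyltransferase, was 10.6 to 17.8 against 8.99 to 12.4 CPM (log2 fold change 0.45, edgeR adjusted p = 0.377). Selenom, a selenoprotein of the endoplasmic reticulum, was 39.9 to 45.8 against 31.8 to 41.9 CPM (log2 fold change 0.27, edgeR adjusted p = 0.382).

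The 3 genes named here after their values were seen were lower in ApoE-/- aortas and did not pass after adjustment. Sesn2, a stress-induced sestrin, was 28.9, 18.5, 19.2 and 37.3 CPM in ApoE-/- and 39.8, 36.3, 40.3 and 55.2 CPM in WT mice (log2 fold change −0.72, edgeR adjusted p = 0.288). Txnip, the inhibitor of thioredoxin, was 1238 to 2058 CPM in ApoE-/- and 2048 to 2418 CPM in WT mice (log2 fold change −0.47, edgeR adjusted p = 0.439). Ehhadh, a peroxisomal enzyme of fatty acid oxidation, was 213, 89.7, 66.8 and 151 CPM in ApoE-/- and 312, 189, 179 and 312 CPM in WT mice (log2 fold change −0.93, edgeR adjusted p = 0.391).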
